A study of Mus musculus with 25 samples.

Results

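The comparison set 13 libraries of mouse intestinal epithelium against 6 libraries of the isolated lymphoid follicle (ILF) that lies below it, which together are 19 of the 25 libraries of the study. The 25 libraries came from laser capture microdissection (LCM), which cuts chosen areas out of tissue sections, of the jejunum of 2 male C57BL/6 mice that were 3 months of age, were fed regular chow and carried no engineered allele named in the labels. Each of 5 repeats gave 5 segments, namely the villus bottom (VB), follicle-associated epithelium at its bottom (FAEB) and top (FAET), and ILF at its bottom (ILFB) and top (ILFT), and mouse 1 gave repeats 1 and 2, mouse 2 the others. Each segment pooled tissue of several ILFs. The epithelium was represented by VB of repeats 1 to 4, FAEB of repeats 1 to 5 and FAET of repeats 2 to 5, and the follicle by ILFB of repeats 1 to 4 and ILFT of repeats 2 and 5. These libraries were chosen by measured values: their shares of epithelial and leukocyte marker transcripts went with their label, whereas those of VB of repeat 5, FAET of repeat 1, ILFB of repeat 5 and ILFT of repeats 1, 3 and 4 went against it. Because the choice used the contrast itself, values of epithelium and follicle within the 19 libraries are a description with no test, and each test of epithelium against ILF used all 25 libraries under their labels.

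The intestinal epithelium is a single sheet made mostly of enterocytes, which carry a brush border of digestive enzymes and transporters and take up sugars, amino acids and lipids, together with mucus-secreting goblet cells. The ILF is a small gut-associated lymphoid tissue of B cells, with T cells, innate lymphoid cells, dendritic cells, macrophages and a meshwork of stromal cells, among them the follicular dendritic cells that hold antigen for B cells. Follicle-associated epithelium covers it and passes luminal antigen inward, in part through M cells. A segment cut by laser holds every cell in the cut area, so the epithelial segments could also hold intraepithelial lymphocytes and stromal cells just below the sheet, and the ILF segments could hold nearby crypts.

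Values are UMIs (unique molecular identifiers, each marking 1 captured mRNA molecule) per 10,000 UMIs of a library. The 13 epithelial libraries held 21529 to 109848 UMIs (median 70784) and 1507 to 7728 detected genes, and the 6 follicle libraries 29987 to 213736 UMIs (median 114186) and 3571 to 14002 genes. Depth and compartment therefore differed together. The 2 ribosomal RNA loci Gm42418 and Rn18s-rs5 took 1164 to 2550 UMIs per 10,000 in the epithelial libraries and 477 to 2380 in the follicle libraries. Their part in the results was not tested. ILFT of repeat 2 was the shallowest follicle library. The total counts of genes without overlap and of genes called in the 25 libraries are given with and without it, and the counts within gene lists only with it.

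The libraries were checked first against the genes that define each compartment. Epcam, an adhesion molecule of all intestinal epithelial cells, had 1.29 to 18.5 UMIs per 10,000 in the 13 epithelial libraries (median 5.38) and 0 to 0.879 in the 6 follicle libraries (median 0.251). Krt8, a keratin of simple epithelia, had 0.464 to 12.9 in the epithelial libraries (median 6.92) and 0.0936 to 6.67 in the follicle libraries (median 0.583), and the 2 ranges overlapped. ILFT of repeat 2 held the 6.67, which came from 20 UMIs. FAET of repeat 2 held the 0.464, from 1 UMI, which was below ILFB of repeat 2 (1.13) and ILFB of repeat 3 (0.879). Ptprc, the common leukocyte antigen CD45, had 0 to 1.27 in the epithelial libraries (median 0.13) and 2.33 to 7.88 in the follicle libraries (median 3.74). Coro1a, an actin-binding protein of leukocytes, had 0 to 2.05 in the epithelial libraries (median 0) and 2.34 to 7.67 in the follicle libraries (median 4.71). Neither compartment was free of the other's genes: the 18 pan-leukocyte genes together took 0.464 to 9.02 UMIs per 10,000 in the epithelial libraries, and the 18 pan-epithelial genes took 0.889 to 14.5 in the follicle libraries.

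**Figure D1:**
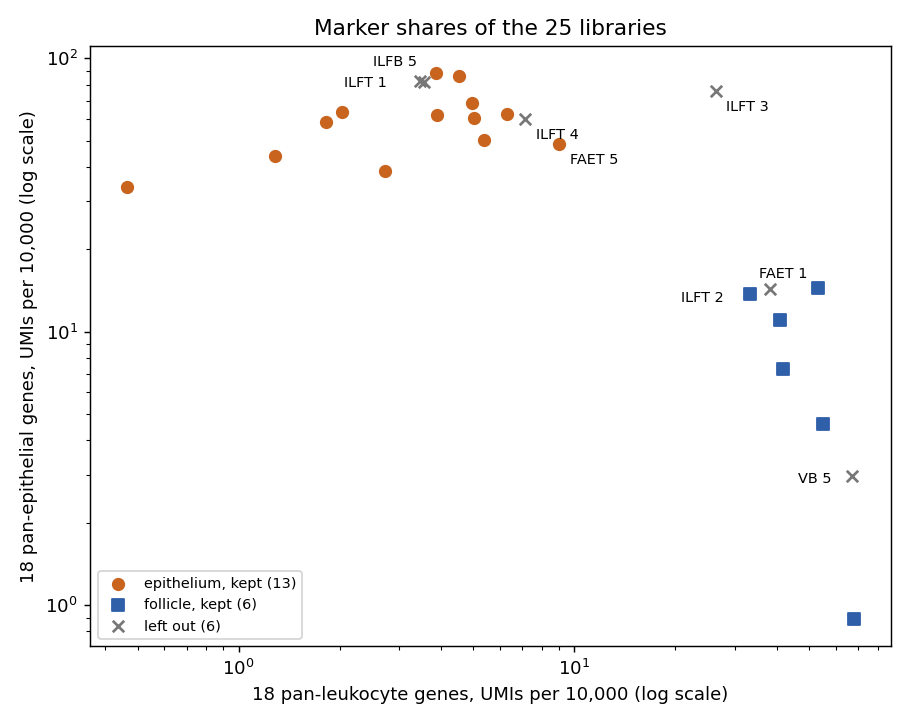
Summed UMIs per 10,000 of 18 pan-leukocyte genes (horizontal, log scale) and 18 pan-epithelial genes (vertical, log scale) in each of the 25 libraries. The 13 kept epithelial libraries (circles) lay between 33.9 and 88.1 on the vertical axis, the 6 kept follicle libraries (squares) between 0.889 and 14.5, and crosses are the 6 libraries left out.

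At the border of the choice, the ratio of pan-epithelial to pan-leukocyte UMIs was 5.36 in FAET of repeat 5, the lowest of the kept epithelial libraries, and 0.41 in ILFT of repeat 2, the highest of the kept follicle libraries. Among the libraries left out, ILFT of repeat 3 had a ratio of 2.87 and FAET of repeat 1 a ratio of 0.375.

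Of 8738 genes that reached 3 UMIs in 3 or more of the 19 libraries, 115 separated the compartments without overlap: 13 (0.149% of the genes) were higher in every epithelial library than in any follicle library, and 102 (1.17%) were higher in every follicle library than in any epithelial library. The rule used this contrast, so these counts are not a result about the choice of libraries. The numbers depended on single libraries, because 1 overlapping library removes a gene. Without ILFT of repeat 2 the counts were 17 and 326, without both ILFT libraries 17 and 540, and without the 4 FAET libraries 57 and 144. With every library thinned to 21529 UMIs, the total of the shallowest, 4 genes were higher in the epithelium (3 of them among the 13) and 36 in the follicle (29 among the 102). The median log2 fold change (epithelium minus follicle) over all 8738 genes was -0.52, and 5285 genes (60.5%) lay on the follicle side, so list medians below are to be read against -0.52. In bulk tissue, fewer cells of a type and less RNA per cell cannot be told apart.

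The 13 genes of the epithelium included genes of the absorptive surface (Sis, Slc5a1 and Myo1a) and of cell adhesion (Cdh1 and Epcam), beside genes of other functions. Sis encodes sucrase-isomaltase, the brush border enzyme that splits sucrose and starch products. It had 2.09 to 18.01 UMIs per 10,000 in the epithelial libraries (median 8.36) and 0 to 0.726 in the follicle libraries (median 0.101), with a log2 fold change of 5.49 (standard error 1.03). Reg3g, a bactericidal lectin that enterocytes secrete, had 10.5 to 32.4 in the epithelial libraries (median 16.8) and 0 to 2.9 in the follicle libraries (median 0.358), with a log2 fold change of 5.32 (standard error 0.96). Both were high in all 3 epithelial segments and near 0 in most follicle libraries. Slc5a1, the sodium-coupled glucose transporter SGLT1, had 1.86 to 17.7 in the epithelial libraries (median 9.18) and 0.0936 to 1.45 in the follicle libraries (median 0.782).

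Cdh1, encoding E-cadherin of the adherens junction, had 1.11 to 12.1 UMIs per 10,000 in the epithelial libraries (median 2.46) and 0 to 0.726 in the follicle libraries (median 0.155). Myo1a, the myosin of the brush border, had 1.74 to 11.3 in the epithelial libraries (median 3.9) and 0 to 0.667 in the follicle libraries (median 0.202). For Rbp2, the retinol-binding protein of enterocytes, the gap was narrow, with 0.464 to 12.9 in the epithelial libraries and 0 to 0.333 in the follicle libraries. Smim24, a small membrane protein, the sialyltransferase gene St3gal4, the actin-severing factor Dstn and Epcam were also above a mean of 2 UMIs per 10,000, with log2 fold changes of 4.62, 4.18, 3.21 and 4.98. Pklr and Gstp2 had lower means. Pklr, the pyruvate kinase of liver and erythrocytes, had 99 UMIs in the 13 epithelial libraries and 2 in the 6 follicle libraries, a pooled ratio of 42.4 (95% exact interval 11.4 to 355, counting error only). This and all later pooled ratios and fold limits describe libraries chosen by this contrast. Their intervals and limits cover counting error only and leave out the spread among libraries. Gstp2, a glutathione transferase gene with a close paralog, had 131 UMIs in the epithelial libraries and 29 in the follicle libraries.

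**Figure D2:**
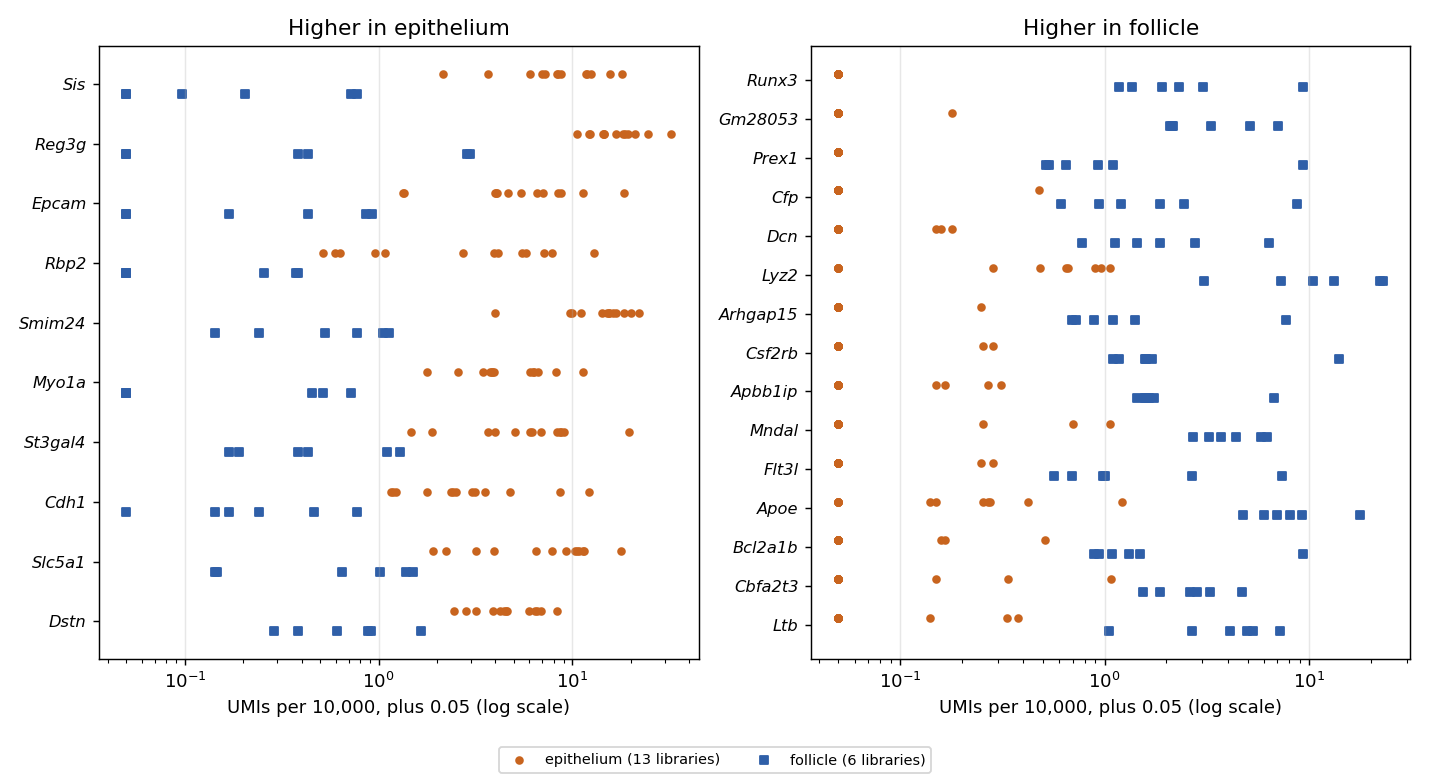
UMIs per 10,000 plus 0.05 (log scale) of single genes in each of the 13 epithelial libraries (circles) and the 6 follicle libraries (squares), for 10 genes higher in the epithelium (left) and 15 higher in the follicle (right), ordered by log2 fold change. The compartments did not overlap for any of these genes, which were selected for that, and the highest square of Prex1, Csf2rb and Bcl2a1b is ILFT of repeat 2.

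Among the 102 genes of the follicle were regulators, surface molecules and effectors of lymphocytes and of phagocytes. Runx3, a regulator of cytotoxic and innate lymphocytes, had 0 UMIs in each of the 13 epithelial libraries and 1.13 to 9.34 per 10,000 in the follicle libraries (median 2.06). With 3 UMIs set as the limit that a count of 0 allows over the group by counting error only, it was at least 60.7-fold lower in the epithelium. In the same way, Prex1, an activator of Rac in phagocytes, was at least 29.98-fold lower, with 0.468 to 9.34 in the follicle libraries (median 0.738), and Il1rn, the interleukin-1 receptor antagonist, at least 25.3-fold lower, with 65 UMIs in all. Altogether 16 of the 102 genes had 0 UMIs in the epithelium, with limits of 6.62-fold to 60.7-fold, 27 had 1 to 3 and 59 had 4 or more.

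Of 15 listed macrophage genes 10 were fitted, of which 8 lay on the follicle side (median log2 fold change -4.78), and C1qb, Lyz2 and Apoe did not overlap between the compartments. Lyz2, the lysozyme of macrophages, had 0 to 1.01 UMIs per 10,000 in the epithelial libraries (median 0.234) and 3.001 to 22.99 in the follicle libraries (median 11.8), with a log2 fold change of -6.14 (standard error 0.78). Apoe, an apolipoprotein that macrophages make, had 0 to 1.17 in the epithelial libraries (median 0.091) and 4.73 to 17.7 in the follicle libraries (median 7.45), with a log2 fold change of -5.54 (standard error 0.78). C1qb, a chain of complement C1q, had 0 to 0.327 in the epithelial libraries (median 0) and 0.968 to 2.67 in the follicle libraries (median 1.59). For these 3 genes the lowest follicle library was above the highest epithelial library by more than the whole epithelial range. Cfp, encoding properdin, had 1 UMI in the epithelium and 116 in the follicle, a pooled ratio of follicle to epithelium of 135 (95% exact interval 23.8 to 5397). Csf2rb, the shared receptor chain for interleukin-3, interleukin-5 and GM-CSF, had 3 and 141 UMIs in the epithelium and the follicle, a ratio of 54.9 (18.4 to 269). Csf2rb reached 14.01 UMIs per 10,000 in ILFT of repeat 2, against 1.05 to 1.65 in the other 5 follicle libraries.

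Stromal and lymphoid tissue genes were among the 102 as well. Clu, encoding clusterin, which follicular dendritic cells express at high levels, had 0 to 3.34 UMIs per 10,000 in the epithelial libraries (median 0.468) and 12.7 to 44.4 in the follicle libraries (median 22.5), with a log2 fold change of -5.15 (standard error 0.64). Ltb, encoding lymphotoxin beta, a signal that organizes lymphoid stroma, had 0 to 0.327 in the epithelial libraries (median 0) and 1 to 7.18 in the follicle libraries (median 4.47). Dcn, encoding the matrix proteoglycan decorin, had 3 UMIs in the epithelium and 141 in the follicle, a ratio of 54.9 (18.4 to 269). Flt3l, the ligand that dendritic cells need for their development, had 0 to 0.234 in the epithelial libraries and 0.515 to 7.34 in the follicle libraries. Apbb1ip (RIAM, an adaptor of integrin activation), Cbfa2t3 (a transcriptional corepressor) and Mndal (an interferon-inducible gene of a cluster of paralogs, so that its counts are uncertain) had log2 fold changes of -5.85, -5.32 and -5.83. Arhgap15, a regulator of Rac, had 2 UMIs in the epithelium and 91 in the follicle, a ratio of 53.1 (14.3 to 445). Bcl2a1b, an inhibitor of apoptosis with near-identical paralogs that make its counts uncertain, had 3 UMIs in the epithelium and 108 in the follicle, a ratio of 42.0 (14.01 to 207). The predicted gene Gm28053, whose role is not known from the files, had 1 UMI in the epithelium and 248 in the follicle.

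Promoters are shown for 3 of these genes as examples that hold a motif of a factor known in that tissue. Other genes named here that hold a searched motif, not shown, are Cbfa2t3 (PU.1, in 1 of its 2 promoters), Bcl2a1a and Rpl13a (PU.1), Il1rn (octamer), Pklr (GATA) and Tmsb10 (CDX). The reference was RefSeq on GRCm38.p6, with 250 bases before to 50 after each start, 11 of the 13 and 75 of the 102 genes had an entry, and capitals mark the motif. The CDX motif TTTATGG, bound by intestinal homeobox factors, lies on the minus strand of the Epcam promoter (chr17:87635729-87636028, plus strand), and the PU.1 motif GAGGAAGT, bound by a factor of myeloid and B cells, on the minus strand of the Apbb1ip promoter (chr2:22774077-22774376, plus strand) and the plus strand of the Bcl2a1b promoter (chr9:89199023-89199322, plus strand).
Epcam: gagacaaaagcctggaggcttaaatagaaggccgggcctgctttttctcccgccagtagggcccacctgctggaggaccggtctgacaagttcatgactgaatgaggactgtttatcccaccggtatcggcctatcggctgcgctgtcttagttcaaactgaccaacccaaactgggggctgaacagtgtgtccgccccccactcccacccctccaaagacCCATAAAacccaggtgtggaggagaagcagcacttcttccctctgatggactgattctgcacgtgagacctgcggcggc
Apbb1ip: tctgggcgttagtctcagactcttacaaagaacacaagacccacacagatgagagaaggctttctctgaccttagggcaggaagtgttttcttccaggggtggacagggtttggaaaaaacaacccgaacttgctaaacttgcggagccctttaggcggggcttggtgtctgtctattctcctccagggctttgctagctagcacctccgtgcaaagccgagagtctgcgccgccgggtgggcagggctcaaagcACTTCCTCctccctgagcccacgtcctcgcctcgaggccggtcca
Bcl2a1b: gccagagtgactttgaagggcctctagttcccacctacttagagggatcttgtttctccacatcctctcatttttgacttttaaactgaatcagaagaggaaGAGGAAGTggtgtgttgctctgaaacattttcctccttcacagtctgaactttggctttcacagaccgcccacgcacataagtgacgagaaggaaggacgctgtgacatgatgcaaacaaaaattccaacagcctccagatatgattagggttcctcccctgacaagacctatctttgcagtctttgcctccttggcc
Searched on both strands, the CDX motif was in 1 of 12 promoters of the epithelial genes (8.33%), in 3 of 117 of the follicle genes (2.56%) and in 2.75% of all 32851 promoters. The PU.1 motif was in 0 of the 12, in 7 of the 117 (5.98%) and in 3.2% of all, and Bcl2a1a and Bcl2a1b, 2 of its 7 genes, are paralogs. The octamer ATGCAAAT was in 0, 4 (3.42%) and 1.74%, the GATA motif AGATAAG in 1 (8.33%), 0 and 3.04%, and the HNF4 motif CAAAGTCCA in 0, 0 and 0.475%. No motif contains the letters of another, and a match is a description of the letters and not a binding site.

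The test that does not depend on the choice of libraries compared the 15 epithelial with the 10 ILF libraries under their labels by edgeR's quasi-likelihood test with Benjamini-Hochberg adjustment. It called 302 of 9956 genes at an adjusted p under 0.05, 47 of them with a higher level in the epithelium (0.472%) and 255 with a higher level in the ILF (2.56%). Of the 13 epithelial genes described above, 1 was called (Sis, log2 fold change 2.20, adjusted p = 0.0482), and of the 102 follicle genes 28 were called, among them Runx3 (-3.43, adjusted p = 0.00812), Apoe (-3.12, adjusted p = 0.00639) and Clu (-2.52, adjusted p = 0.01). Epcam (1.41, adjusted p = 0.23) and Ptprc (-1.63, adjusted p = 0.17) were not called. The 254 called genes that were also fitted in the 19 libraries had the same sign in both fits, which share 19 libraries. For the 47 higher in the epithelium the median log2 fold change was 4.43 in the 19 libraries and 3.18 in the 25, and for the 207 higher in the ILF it was -4.22 and -3.35. The common dispersion was 1.18 in the 19 libraries and 1.78 in the 25. The 302 calls rested on few libraries: edgeR called 0 without repeat 4 (1089 at an unadjusted p under 0.05), 27 without repeat 3 and 37 without repeat 2, DESeq2 called 0 (749 at an unadjusted p under 0.05), and with the repeat number as a replicate block edgeR called 80.

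In the lists that follow, counts and medians cover fitted genes. A gene at or near 0 in 1 compartment passed the filter only through the other, which fixed its side, so these counts and medians describe the lists, and the calls in the 25 libraries are to be read against the 0.472% and 2.56% of all genes. Fitted genes of enterocyte functions lay mostly on the epithelial side. Of 22 brush border digestion genes, 22 had a positive log2 fold change in the 19 libraries (median 4.13), 2 did not overlap between compartments, and 3 were called in the 25 libraries (Lct, encoding lactase, Mep1a, encoding the metalloprotease meprin, and Sis). Anpep, the aminopeptidase N of the brush border, had 7.97 to 69.8 UMIs per 10,000 in the epithelial libraries (median 37.6) and 0.716 to 12.6 in the follicle libraries (median 3.89), and was not called in the 25 libraries (log2 fold change 1.51, edgeR adjusted p = 0.0918). Of 22 listed lipid absorption genes 18 were fitted, and 18 lay on the epithelial side (median 4.05), 0 separated the compartments without overlap, and 5 of 20 were called in the 25 libraries. Those 5 were the chylomicron apolipoproteins Apoa1, Apoa4 and Apoc3, the fatty acid binding protein Fabp2 and Npc1l1, the cholesterol transporter. Apoa4 ranged over 0.873 to 191.7 in the epithelial libraries (median 16.3) and 0.0468 to 6.67 in the follicle libraries (median 1.83), so it overlapped although it was called (2.46, edgeR adjusted p = 0.00639).

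Solute carriers took 6.94 to 96.5 UMIs per 10,000 in the epithelial libraries and 1.64 to 4.77 in the follicle libraries, and 17 of 18 fitted genes of 22 listed lay on the epithelial side (median log2 fold change 3.49). Slc2a2, the basolateral glucose transporter GLUT2, had 144 UMIs in the epithelium and 1 in the follicle, a pooled ratio of 123 (95% exact interval 21.8 to 4903), and was called in the 25 libraries (3.76, edgeR adjusted p = 0.0108), as were Slc6a19, the carrier of neutral amino acids, and Slc34a2, a sodium-phosphate cotransporter. Xenobiotic and retinoid metabolism genes lay on that side in 19 of 19 fitted of 25 listed (median 3.62), with 1 of 21 called, the carboxylesterase gene Ces2a. Enterocyte transcription factors did so in 15 of 16 fitted of 20 listed (median 2.56), with 0 of 16 called by edgeR and 2 at an unadjusted p under 0.05. Hnf4g, a nuclear receptor of enterocytes, had 0 to 6.86 in the epithelial libraries (median 1.47) and 0 to 0.887 in the follicle libraries (median 0.143), and Klf5, a factor of the crypt and villus base, 0 to 5.64 in the epithelial libraries (median 1.99) and 0 to 0.93 in the follicle libraries (median 0.275). Both overlapped between compartments and had an edgeR adjusted p of 0.505 and 0.495 in the 25 libraries. Creb3l3, also on the list, was about as high in ILFB of repeats 1 to 3 (4.6, 7.83 and 7.24) as in the epithelium, but had 0 in ILFB of repeat 4. Its segment medians were 6.83 in VB, 3.93 in FAEB, 6.3 in FAET, 5.92 in ILFB and 0.334 in ILFT. Its pooled ratio of epithelium to follicle was 1.29 (95% exact interval 1.11 to 1.5, counting error only). The same ratio for Maf was 3.22 (2.74 to 3.81). Goblet cell genes lay on the epithelial side in 9 of 9 fitted of 12 listed (median 3.23), with 0 called by edgeR and 2 at an unadjusted p under 0.05, with Zg16, a lectin of the mucus, at 0 to 18.01 in the epithelial libraries (median 5.76) and 0 to 2.17 in the follicle libraries (median 0.108).

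Antimicrobial genes split by cell type. Of 13 genes of the enterocyte antimicrobial list 8 were fitted, of which 7 lay on the epithelial side (median 4.02), and 1 of 11 was called in the 25 libraries. This was Reg3b, a lectin related to Reg3g, with 0 to 19.4 UMIs per 10,000 in the epithelial libraries (median 5.67) and 0 to 0.333 in the follicle libraries (median 0.0882), and a log2 fold change of 2.43 in the 25 libraries (edgeR adjusted p = 0.0346). Pigr, the receptor that carries IgA across the epithelium, had 10.7 to 56.99 in the epithelial libraries (median 24) and 0.374 to 19.8 in the follicle libraries (median 2.73). In contrast, 9 of 11 fitted Paneth cell genes of 16 listed lay on the follicle side (median -1.05), and 4 of 11 were called there in the 25 libraries, all alpha-defensins (Defa17, Defa21, Defa22 and Defa24), whose near-identical copies make their single counts uncertain. Paneth cells sit at the base of crypts and are epithelial, so these genes do not go with the compartment of their cell type. Together the Paneth cell genes took 0 to 48 in the epithelial libraries and 1.79 to 72.4 in the follicle libraries, and the 2 ranges overlapped, with the 48 from FAEB of repeat 1. By segment their median was 1.58 in VB, 1.29 in FAEB, 0.565 in FAET, 49.6 in ILFB and 6.56 in ILFT. The 4 calls also used the libraries left out, where ILFT of repeat 4 held 57.4 of Paneth cell genes. The other libraries left out held 0.356 to 5.24 of them. In the 25 libraries the median log2 fold change of the list was -2.61. Lgr5, a marker of crypt stem cells, overlapped, with 0.391 to 3.25 in the epithelial libraries (median 0.818) and 0.62 to 1.17 in the follicle libraries (median 0.979).

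Fitted lymphocyte genes lay mostly on the follicle side. Of 22 listed lymphoid transcription factors 18 were fitted, and 18 had a negative log2 fold change (median -3.38, and -3.45 with the 3 genes at 0 in a compartment set at their bound), 3 did not overlap (Runx3, the Ikaros gene Ikzf1 and Fli1), and 2 of 19 were called in the 25 libraries. One of these was Mef2c, a factor of B cells, with 2 UMIs in the epithelium and 146 in the follicle, a ratio of 85.3 (95% exact interval 23.2 to 711). Ebf1, which specifies B cells, overlapped widely, with 0.982 to 9.72 UMIs per 10,000 in the epithelial libraries (median 2.46) and 1.07 to 6.08 in the follicle libraries (median 3.56), and its log2 fold change was -0.07 in the 19 libraries and 0.13 in the 25. The 20 B cell genes lay on the follicle side (median -3.47), but 6 of them had 0 UMIs in the epithelium, so that only the follicle libraries took them past the filter (median -3.85 with these at their bound). Of the 20, 1 did not overlap (Cd22) and 4 of 20 were called, the signaling genes Bank1, Blk and Blnk and H2-Ob, a gene of MHC class II presentation. Cd79b, a signaling chain of the B cell receptor, had 2 UMIs in the epithelium and 153 in the follicle. B cell genes together took 1.42 to 10.3 in the epithelial libraries and 6.68 to 60 in the follicle libraries, where ILFB of repeat 4 held the 60 and the other 5 libraries at most 22.5.

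Of 22 listed T cell genes 15 were fitted, of which 13 lay on the follicle side (median -3.32, and -2.92 with 1 gene at its bound), and 3 of 17 were called in the 25 libraries. These were Trbc2, a constant segment of the T cell receptor, the adaptor gene Lat and the costimulatory receptor gene Cd28. Ctla4, an inhibitory receptor of regulatory T cells, had 0 to 4.96 UMIs per 10,000 in the epithelial libraries (median 1.02) and 3.67 to 13.3 in the follicle libraries (median 6.16), and was not called (-1.16, edgeR adjusted p = 0.324). The summed T cell genes overlapped, with 0 to 13.3 in the epithelial libraries and 11.7 to 20.5 in the follicle libraries, and FAET of repeat 3 held the 13.3. Genes of lymphoid tissue inducer cells and type 3 innate lymphoid cells had 8 of 14 listed members fitted, which lay on the follicle side (median -2.89, and -3.09 with 2 genes at their bound), with 0 of 10 called by edgeR and 4 at an unadjusted p under 0.05. Cxcl13, the chemokine that draws B cells into follicles, had 2 UMIs in the epithelium and 301 in the follicle, a ratio of 176 (95% exact interval 48.2 to 1458), and was called in the 25 libraries (-2.78, edgeR adjusted p = 0.0281). Igha, the heavy chain of IgA, had 0 to 37.3 in the epithelial libraries (median 3.05) and 6.04 to 52.3 in the follicle libraries (median 39.6), and was called (-2.53, edgeR adjusted p = 0.00639). That call also used the libraries left out, where ILFT of repeat 3 held 370.7 and FAET of repeat 1 held 59.96. The other libraries left out held 0.726 to 6.8 of Igha. Of the 10 fitted macrophage genes, 3 were called (C1qa, Lyz2 and Apoe).

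**Figure D3:**
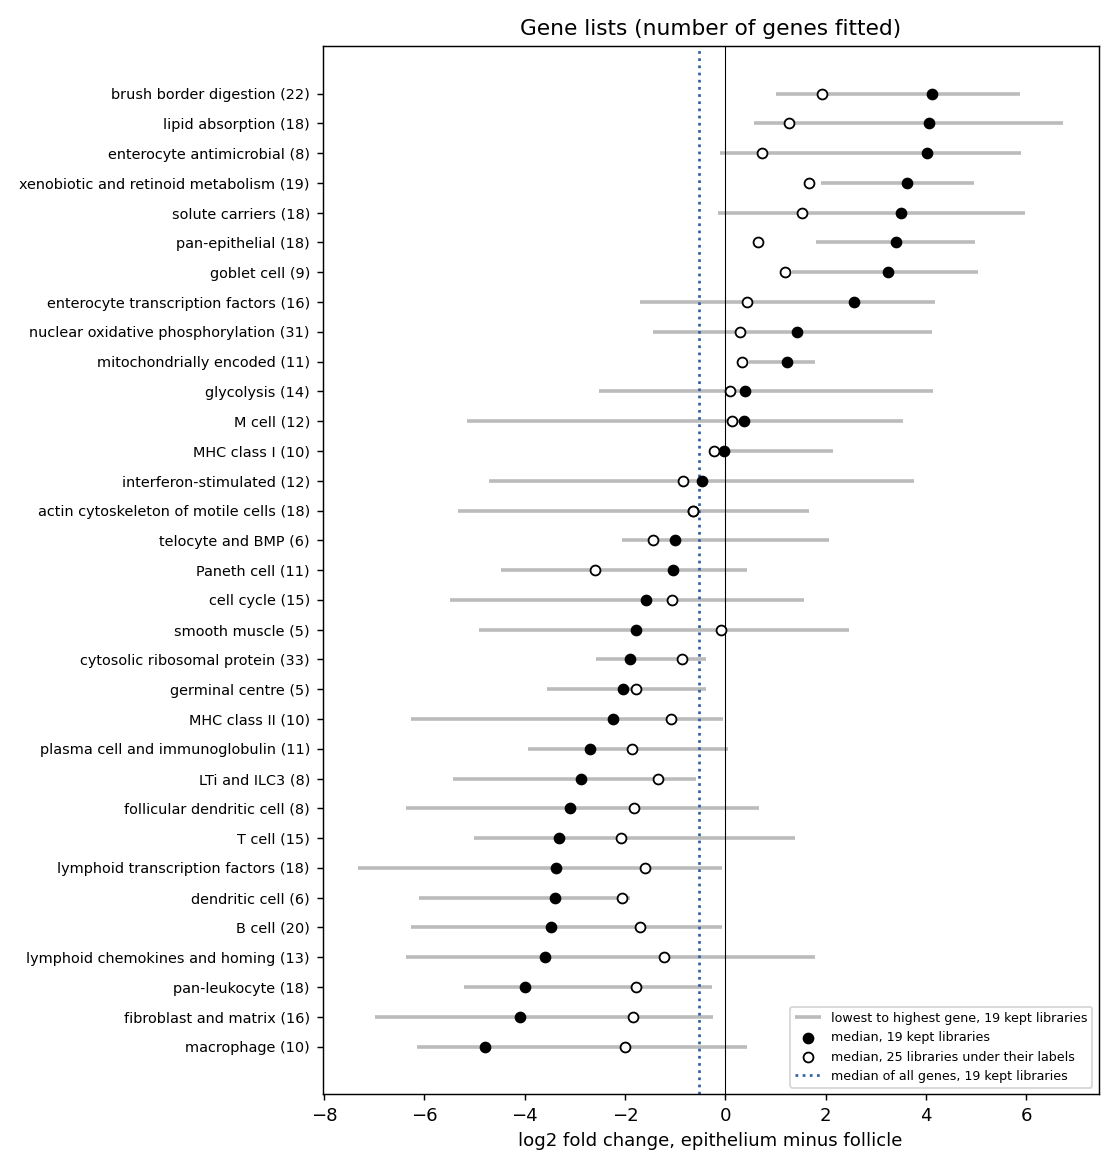
Log2 fold change (epithelium minus follicle) of gene lists with at least 5 fitted genes, with the number fitted in brackets. Filled circles are list medians in the 19 kept libraries, grey lines run from the lowest to the highest gene, open circles are medians in the 25 libraries under their labels, and the dotted line is the median of all genes in the 19 libraries, -0.52. Brush border digestion has the highest median, 4.13, and macrophage the lowest, -4.78.

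The listed antigen presentation genes differed by class. All 10 fitted genes of MHC class II presentation lay on the follicle side (median -2.23) and 3 did not overlap. The invariant chain gene Cd74 had 4.05 to 16.8 UMIs per 10,000 in the epithelial libraries (median 10.4) and 19.7 to 46.9 in the follicle libraries (median 39.97), a level that separated the compartments. The class II chain gene H2-Aa had 0 to 13.7 in the epithelial libraries (median 7.97) and 20.2 to 32.2 in the follicle libraries (median 26.2), and H2-Eb1 had 0 to 7.38 in the epithelial libraries (median 3.28) and 14.04 to 26.7 in the follicle libraries (median 21.5). H2-Ob was the 1 of 10 genes called in the 25 libraries. The 10 listed MHC class I genes showed no separation: 5 lay on each side and the median was -0.03. B2m, the shared light chain, had 2.32 to 37.5 in the epithelial libraries (median 13.05) and 9.55 to 27.2 in the follicle libraries (median 19.6). H2-Q6, a class I gene that is not on the list, did not overlap, with 5 UMIs in the epithelium and 92 in the follicle.

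Fitted stromal genes lay mostly on the follicle side. Of 20 listed fibroblast and matrix genes 16 were fitted, and 16 had a negative log2 fold change (median -4.10, and -3.81 with 2 genes at their bound), and 4 of 17 were called in the 25 libraries, the collagen genes Col4a2 and Col6a2, the growth factor receptor gene Pdgfrb and Igfbp7, a secreted protein of stroma and vessels. Igfbp7 had 0 UMIs in the epithelium and 270 in the follicle, at least 105-fold lower in the epithelium, although ILFT of repeat 2 had 0 as well. Follicular dendritic cell genes lay there in 7 of 8 fitted of 11 listed (median -3.11), among them Mfge8, which tags dying cells for uptake, with 0 to 8.82 UMIs per 10,000 in the epithelial libraries (median 1.17) and 8.63 to 47.97 in the follicle libraries (median 26.4). Markers of vessels and muscle were sparse or mixed. Pecam1, the endothelial adhesion molecule CD31, had 0.261 to 3.002 in the epithelial libraries (median 1.92) and 2.01 to 4.68 in the follicle libraries (median 2.21), and 2 of 5 fitted smooth muscle genes of 12 listed, Mylk and Tpm1, lay on the epithelial side. M cell genes were also mixed, with 8 of 12 fitted of 15 listed on the epithelial side (median 0.36) and Clu, which is on that list too, without overlap on the follicle side.

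Housekeeping functions lay on opposite sides. The 33 fitted genes of a list of 34 cytosolic ribosomal protein genes lay on the follicle side (median -1.90), 2 of them did not overlap (Rpl10 and Rps15, while Rpl13a and Rpl37a, which are not on the list, did not overlap either), and 0 of 33 were called in the 25 libraries by edgeR, with 2 at an unadjusted p under 0.05. Together they took 27.9 to 241 UMIs per 10,000 in the epithelial libraries and 172 to 488 in the follicle libraries. Many ribosomal protein genes have processed pseudogenes, such as Rpl21-ps11 among the 102, whose reads cannot be told apart from theirs with certainty. Mitochondrially encoded genes lay on the epithelial side in 11 of 11 fitted of 13 listed (median 1.22) and nuclear oxidative phosphorylation genes in 29 of 31 fitted of 32 listed (median 1.42), with 0 called by edgeR in either list and 1 and 0 at an unadjusted p under 0.05. The nuclear genes together took 49.2 to 128 in the epithelial libraries and 22.8 to 42.4 in the follicle libraries, without overlap, while the mitochondrially encoded genes took 244 to 763 in the epithelial libraries and 136 to 544 in the follicle libraries and overlapped. Of 24 listed cell cycle genes 15 were fitted, of which 14 lay on the follicle side (median -1.58) and 0 of 19 were called by edgeR, with 4 at an unadjusted p under 0.05. Tubb5, a tubulin that is high in dividing cells, had 2 UMIs in the epithelium and 157 in the follicle. Among 18 genes of the actin cytoskeleton of motile cells, Tmsb10, an actin-sequestering peptide, had 0 to 2.89 in the epithelial libraries (median 0.913) and 3.47 to 17.1 in the follicle libraries (median 9.58), whereas Actb, encoding beta-actin, overlapped, with 15.6 to 60.2 in the epithelial libraries (median 43.1) and 38.9 to 62.3 in the follicle libraries (median 51.7).

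The 6 libraries left out were then set beside these genes, as a description. VB of repeat 5 was above every kept epithelial library for 99 of the 102 follicle genes and above every kept follicle library for 0 of the 13 epithelial genes, and FAET of repeat 1 for 83 and 3. ILFT of repeat 1 and ILFB of repeat 5 did so for 10 and 11 of the 102 and for 13 of the 13 each, and ILFT of repeat 4 for 18 and 12. ILFT of repeat 3 lay in both ranges, with 50 of the 102 and 11 of the 13. Which tissue these libraries hold was not tested beyond these shares.

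**Figure D4:**
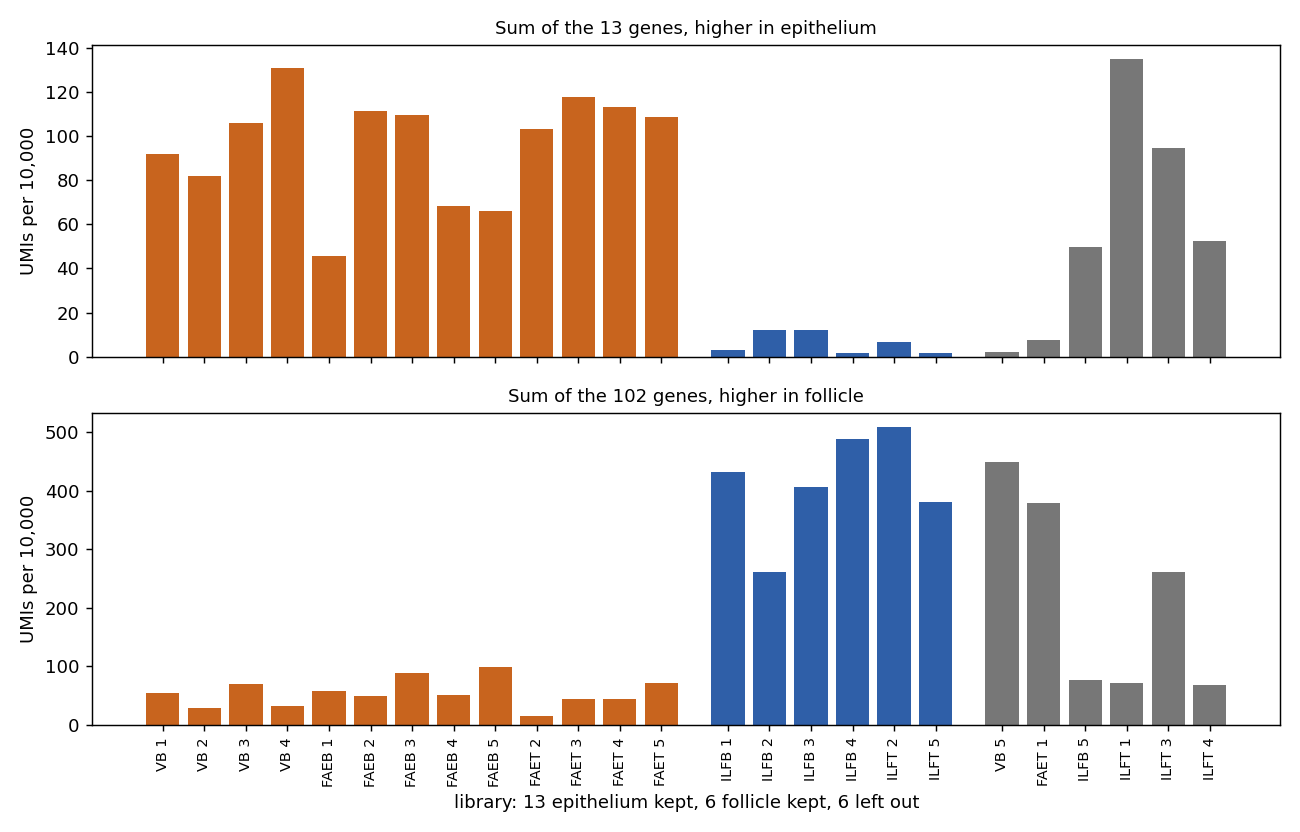
Summed UMIs per 10,000 of the 13 genes higher in the epithelium (top) and of the 102 genes higher in the follicle (bottom) in each library, with the 13 kept epithelial libraries left, the 6 kept follicle libraries in the middle and the 6 libraries left out on the right. The 13 genes sum to 45.6 to 131 in the epithelial and 1.68 to 12.2 in the follicle libraries, and the 102 genes to 14.9 to 99.2 in the epithelial and 261 to 508 in the follicle libraries.

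The choice of libraries did not use the segment within a compartment, but it fell unevenly on the segments. It kept 4 of 5 VB, 5 of 5 FAEB, 4 of 5 FAET, 4 of 5 ILFB and 2 of 5 ILFT libraries. Tests among segments within the 19 libraries therefore hold for the libraries so chosen, and the part of the choice in them was not tested. Among VB, FAEB and FAET, edgeR's joint test called 16 of 8738 genes (0.183%), with 1459 at an unadjusted p under 0.05, and none of the 115 genes without overlap was among the 16. Of the 13 epithelial genes 0 reached an unadjusted p under 0.05, and the smallest edgeR adjusted p was 0.349, for Pklr. Their sum was 81.7 to 131 UMIs per 10,000 in VB, 45.6 to 111 in FAEB and 103 to 118 in FAET, and these ranges overlapped. The 13 were selected to lie above every follicle library in each kept VB, FAEB and FAET library. That selection left out genes that fell to the follicle level in any epithelial segment. The follicle genes among the 115 were selected to lie below every follicle library in the same libraries. The 0 of 13, the overlapping sums and the absence of the 115 from the 16 calls are therefore no result about these genes. Slc34a2 had the smallest adjusted p (7.28e-08, edgeR), with 1.27 to 67.5 in VB, 0 to 0.935 in FAEB and 0 to 0.989 in FAET. Each of the 4 VB libraries stood above every FAEB and FAET library.

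The other calls often turned on 1 library. Phldb1, a protein of the cell cortex (edgeR adjusted p = 5.75e-07), had 1119 UMIs in FAEB of repeat 4, while no other epithelial library had more than 5, and Dnmt3a, a DNA methyltransferase (edgeR adjusted p = 4.28e-05), had 1324 UMIs in VB of repeat 4, the next highest epithelial library holding 47. Tug1, a long noncoding RNA, had 115 and 58 UMIs in VB of repeats 2 and 3 and at most 6 in each other epithelial library. Kitl, stem cell factor, was high in FAEB of repeats 2 and 5 (112 and 266 UMIs) and FAET of repeats 2 and 3 (33 and 53), with at most 4 elsewhere in the epithelium. With the repeat as a replicate block edgeR called 1 gene.

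Between ILFB and ILFT, with 4 and 2 libraries, edgeR called 3 of 8738 genes (0.0343%), with 1091 at an unadjusted p under 0.05. Kitl had 0, 0.161, 0.155 and 0.187 UMIs per 10,000 in ILFB and 19.3 and 18.7 in ILFT, so that both kept ILFT libraries stood above all kept ILFB libraries (log2 fold change ILFB minus ILFT -6.16, standard error 1.24, edgeR adjusted p = 0.00445). ILFT of repeats 1, 3 and 4, which were left out, held 0.174, 0.512 and 0 of Kitl. FAEB of repeats 2 and 5, the repeats of the kept ILFT libraries, held 13.1 and 34.7. Mir6240 had 22.4, 68.8, 27.8 and 12.7 in ILFB and 1 and 0.955 in ILFT (5.96, adjusted p = 0.00445, edgeR). It was also low, at 0.522 to 2.87, in FAEB of repeats 2 and 5 and FAET of repeats 2, 3 and 5. The other kept epithelial libraries held 33.7 to 103 of Mir6240. For both genes, a part of single libraries or repeats was not tested. Rassf6, a scaffold gene of the Hippo pathway, had 0 in 2 ILFB libraries, 8.79 and 10.5 in the other ILFB libraries and 0 in both ILFT libraries, and its fitted fold change depends on the prior count (adjusted p = 0.0153, edgeR). None of the 115 genes was called there. The 102 follicle genes had a median log2 fold change (ILFB minus ILFT) of 0.35, against 1.88 over all 8738 genes, with 0 of the 102 at an unadjusted p under 0.05, and they summed to 261 to 488 in ILFB and 382 to 508 in ILFT. The 102 were selected to lie above every epithelial library in both ILFT libraries, which left out genes near 0 in ILFT. Their smaller median and the 0 of 102 are therefore no result about these genes. With the repeat as a replicate block 0 genes were called.

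**Figure D5:**
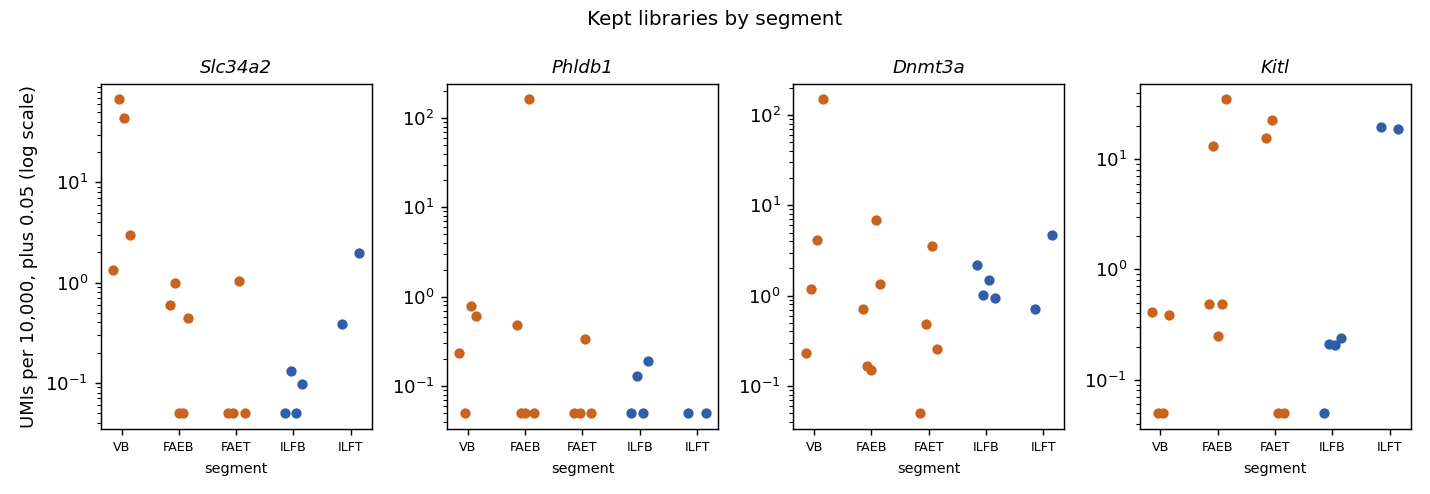
UMIs per 10,000 plus 0.05 (log scale) of Slc34a2, Phldb1, Dnmt3a and Kitl in each kept library by segment (VB, FAEB and FAET epithelium, ILFB and ILFT follicle, 1 point a library). Slc34a2 reaches 67.5 in VB, Phldb1 and Dnmt3a each stand on 1 library, and Kitl is at 19.3 and 18.7 in ILFT with at most 0.187 in ILFB.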

How the data were processed

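LCM RNA libraries of 25 jejunal segments were analyzed, of which 19 are the subject here. Per the study's methods, the authors processed reads with zUMIs and STAR against GRCm38 (Ensembl 84), and the submitters' processing notes name bcl2fastq 2.15.0.4. The authors deposited raw UMI counts, not normalized, for 24089 genes, and 0 columns lacked a sample. The labels name both SMART-seq and SCRB-seq chemistry, the methods mcSCRB-seq. The UMI table was taken as counts. A deposited barcode sheet was not used. All pairs of a group differed by more than counting noise (lowest chi-square 5.87 per degree of freedom).

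Genes reaching 3 UMIs in 3 or more fitted libraries were kept, 9956 over 25 libraries and 8738 over 19. Fits used edgeR 4.0.16 (R 4.3.3) with TMM factors, terms for mouse and segment, and quasi-likelihood tests. Alternatives were RLE factors, DESeq2 1.42.0, limma 3.58.1 (voom), other filters and library sizes, left-out repeats and the repeat as a block. The fit was tested on simulated data. Python 3.11.15 and matplotlib 3.10.9 were used otherwise. All libraries came from 2 mice, so the p-values reflect how dissections vary more than how animals do.

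The libraries, lists and comparisons were chosen with earlier results of these data known. Named genes are the 4 markers, up to 15 in each direction with the largest log2 fold change among genes without overlap and with a mean of at least 2 UMIs per 10,000, up to 4 per list by level, and up to 5 per direction called within a compartment. For 1 gene that the rule names, the result is not reported here. Other genes in the text were named after their values were seen. Repeats share an animal and sections, so their numbers pair the libraries. Deviations from segment means correlated at 0.0228 within a repeat (50 pairs), -0.0102 between repeats of a mouse (80) and -0.00313 between mice (120).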

Additional observations from a re-analysis of the deposited data

Results flagged for a closer look

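In the 6 follicle libraries, 82 genes and lists were examined for a library far from the others, and 17 (20.7%) had one. Chance flags about 1 in 20 groups of values chosen without regard to them, which is no measure here: several of the genes (Prex1, Csf2rb, Arhgap15, Apbb1ip, Flt3l and Bcl2a1b among them) were named by a rule on their mean over the 6 libraries, which the value in ILFT of repeat 2 raised past its minimum of 2 UMIs per 10,000. ILFT of repeat 2, the shallowest follicle library with 29987 UMIs, was the high one in 14 of the 17. In UMIs per 10,000 it held 6.67 for Krt8 (others 0.0936 to 1.13), 9.34 for Runx3 (others 1.13 to 2.97), 9.34 for Prex1 (0.468 to 1.05), 8.67 for Cfp (0.561 to 2.39), 6.34 for Dcn (0.726 to 2.71), 7.67 for Arhgap15 (0.645 to 1.36) and 14.01 for Csf2rb (1.05 to 1.65). It also held 6.67 for Apbb1ip (1.4 to 1.69), 7.34 for Flt3l (0.515 to 2.63), 17.7 for Apoe (4.73 to 9.19), 9.34 for Bcl2a1b (0.835 to 1.44) and 6.34 for Thegl, which was at 0 in the other 5. Interferon-stimulated genes together took 23.01 there (4.03 to 8.12 in the others) and adipocyte genes 0.667 (0 to 0.242).

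ILFT of repeat 5 stood apart for Slc34a2, at 1.91 (0 to 0.334 in the others), and for Dnmt3a, at 4.65 (0.667 to 2.11). ILFB of repeat 4, the deepest library with 213736 UMIs, held 60.03 UMIs per 10,000 of B cell genes, against 6.68 to 22.5 in the other 5. The part of depth in these values was not tested.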

How the results depend on the processing

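Of the 302 calls between epithelium and ILF in 25 libraries, RLE factors gave 430 and library sizes after the study's manner without TMM 321, while the replicate block gave 80, 1 term for compartment 180, no filter 142, limma-voom 33, DESeq2 0 (749 at an unadjusted p under 0.05) and a filter of 10 UMIs in 5 libraries 0 of 2326 (338 at an unadjusted p under 0.05). The median over all genes was -0.48, and -0.34 with those sizes. Leaving out 1 repeat gave 0 to 414 calls (0 without repeat 4, 27 without repeat 3, 37 without repeat 2), and leaving out ILFT of repeat 2, an alternative chosen after seeing the data, 251. Among VB, FAEB and FAET, 16 calls became 51 with RLE, 1 with the replicate block and 6 to 21 without 1 repeat. Between ILFB and ILFT, 3 became 6, 0 and 1 to 3; where a repeat left 1 ILFT library, it was assumed to vary like the other groups.

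The 13 genes without overlap in the epithelium and the 102 in the follicle became 19 and 69 without mitochondrial genes and genes reaching 5% of a library, 4 and 36 after thinning, 12 and 53 of 1689 with at least 10 UMIs in 5 libraries, and 15 to 50 and 120 to 511 without 1 repeat (both highest without repeat 2). Alternatives chosen after seeing the data gave 17 and 540 without ILFT, 57 and 144 without FAET, and 17 and 326 without ILFT of repeat 2. Fewer libraries leave more genes without overlap by construction. Of 170 named log2 fold changes, 5 changed sign with RLE, 6 with the replicate block and 9 in the 25 libraries, with 0 of the genes without overlap among them. Leaving out 1 repeat turned the sign of 2 to 11 of them. Depth limits low genes: 0 UMIs over 13 libraries allows up to 3.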
